A study of Mus musculus with 18 samples.

Results

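A set of 35 cell cycle genes was followed in adult mouse retina 3 days after optic nerve crush: 20 that act in mitosis and 15 that act at the start of the cycle and in DNA replication. The rule took a fixed list of proliferation symbols and every array probe whose RefSeq accession maps to a listed symbol. The list was chosen with earlier results of these data known, so shares of all genes set beside it are no independent test. All 35 were on the array, through 46 probes, out of 32992 genes and unnamed probes in the whole series. In 31 of the 35 the retina signal was well above background on all 17 labelled arrays. As the mean of both genotypes 5 of these 31 rose after crush (Cenpe, Mcm6, Uhrf1, Nusap1 and Ccnd1) and 1 fell (Ccne1). The folds were 1.16 to 1.42 for the rises and 0.897 for the fall. Of all genes tested 2.61% rose and 0.962% fell in that comparison (3.57% in all). Within single genotypes only Mcm6 and Ccne1 (Cre-negative) and Cenpe (Cre-positive) passed the test, and no gene passed in both. Among the genes that rose as the mean, Uhrf1 and Nusap1 had dim retina signals. The calls of Nusap1 and Ccnd1 were lost in many alternative settings, given below. For the usual proliferation markers Mki67, Top2a and Cdk1 no change passed the test.

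All mice carried loxP sites in both alleles of Map3k12, which encodes the dual leucine zipper kinase DLK, and all had been given tamoxifen at 10 to 12 weeks of age. They differed in a Cre-ERT transgene driven by the CAG promoter, which is active in many tissues and not in neurons alone, so the deletion is not restricted to one retinal cell type. The groups were Cre-negative uncrushed (4 arrays), Cre-negative crushed (3), Cre-positive uncrushed (5) and Cre-positive crushed (5). Replicate numbers were given here in the order of the samples, and equal numbers in different groups are not matched arrays. The uninjured eye was the control, but the labels do not say which crushed and uncrushed retinas came from the same animal, nor that arrays are separate animals, so p-values measure only the spread between these samples, which may be technical. One further array was labelled uncrushed and Cre-negative in its title, uncrushed in its treatment label and crushed in its description. It entered no group, although the treatment label was what placed the other arrays in theirs. In ganglion cell markers, given below, it lay near the Cre-negative crushed arrays and apart from the uncrushed ones.

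In a dividing cell, E2F factors switch on the genes for cyclin E, the MCM helicase and nucleotide supply before S phase. Genes for mitosis come on later, and in resting cells the DREAM complex holds them off through a short element named CHR. CCAAT boxes bound by NF-Y are common in the same promoters. Neurons of the adult mouse retina are postmitotic, and microglia and other glia are the cells that can divide after injury.

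The promoters of 5 of these genes are printed as examples of these elements. Mcm6, Uhrf1 and Cenpe rose after crush, and the changes of Mki67 and Cdk1 did not pass the test. Each line gives the 210 bases before the RefSeq start site in build GRCm38.p6, read 5' to 3' on the gene's strand. Capitals mark E2F matches (TTTGGCGC, TTTCGCGC, TTTCCCGC or TTTGCCGC), CHR matches (TTTGAA or TTCGAA) and CCAAT, each on either strand, so that ATTGG is CCAAT read backwards. RefSeq lists more than 1 start for Uhrf1, and the start whose window holds an E2F match is shown. The other Uhrf1 window holds CCAAT but no E2F letters.

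Mcm6, chr1:128359706-128359915, minus strand: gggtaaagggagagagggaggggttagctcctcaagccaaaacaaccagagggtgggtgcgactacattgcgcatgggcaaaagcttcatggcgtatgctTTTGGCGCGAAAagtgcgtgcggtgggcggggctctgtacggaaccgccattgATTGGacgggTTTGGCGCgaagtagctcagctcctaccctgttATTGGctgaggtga
Uhrf1, chr17:56304103-56304312, plus strand: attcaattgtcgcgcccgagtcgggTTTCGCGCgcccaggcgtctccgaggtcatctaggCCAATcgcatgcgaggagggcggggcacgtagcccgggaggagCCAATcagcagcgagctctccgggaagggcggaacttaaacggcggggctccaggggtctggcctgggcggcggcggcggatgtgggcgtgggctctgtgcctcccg
Cenpe, chr3:135212353-135212562, plus strand: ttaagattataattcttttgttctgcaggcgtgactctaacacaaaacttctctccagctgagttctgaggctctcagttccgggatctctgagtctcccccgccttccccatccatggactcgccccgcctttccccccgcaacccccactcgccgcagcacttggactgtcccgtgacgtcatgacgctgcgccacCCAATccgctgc
Mki67, chr7:135716380-135716589, minus strand: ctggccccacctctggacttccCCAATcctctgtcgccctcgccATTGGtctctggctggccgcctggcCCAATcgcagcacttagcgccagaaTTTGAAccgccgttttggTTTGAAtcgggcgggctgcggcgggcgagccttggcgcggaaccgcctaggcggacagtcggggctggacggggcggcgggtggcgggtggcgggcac
Cdk1, chr10:69352913-69353122, minus strand: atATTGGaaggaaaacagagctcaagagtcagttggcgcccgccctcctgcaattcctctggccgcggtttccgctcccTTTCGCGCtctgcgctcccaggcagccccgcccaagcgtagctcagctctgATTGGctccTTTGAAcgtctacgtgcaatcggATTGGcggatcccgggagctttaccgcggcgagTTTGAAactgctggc

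The Mcm6 stretch holds 3 E2F matches, of which a pair overlaps on opposite strands, and no CHR match. Mki67 holds 2 CHR matches and no E2F match, Cdk1 holds both kinds, and Cenpe only a CCAAT box. A window of 300 bases (250 before and 50 after the start) was on hand for 29 of the 35 genes, and Ccna2, Aurkb, Tpx2, Mcm4, Ccne2 and Ccnd1 had none. E2F letters stood in the windows of 6 of the 29 genes (20.7%), against 2.6% of 27025 genes with a window. CHR letters stood in 15 of 29 (51.7%, against 21.7%) and CCAAT in 24 of 29 (82.8%, against 41.1%). The elements divided by role: CHR letters were in 13 of 17 mitosis genes and 2 of 12 G1 and replication genes, while E2F letters were in 1 of 17 and 5 of 12, with 4 of the 5 MCM genes that had a window among the latter. Of the 6 genes with E2F letters, Mcm6 and Uhrf1 rose after crush, while no change of Cdk1, Mcm3, Mcm5 or Mcm7 passed. Cenpe and Nusap1, which also rose, had windows without E2F letters. A match describes letters, not binding, and the shares given here were not tested.

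Values are log2 of the retina signal (Cy5) over a universal mouse reference RNA (Cy3) that was on every array. A difference between groups is therefore a log2 change in retina. The tissue carried the markers of retina: the rod genes Nrl, Gnat1 and Sag were well above background on 17 of 17 arrays, as were 9 of 10 ganglion cell genes and all 10 Müller glia genes. Between 68% and 75.5% of probes were well above background on each array. Map3k12 had a mean log2 ratio of 2.43 ± 0.16 (SD, n = 4) in Cre-negative and 2 ± 0.16 (n = 5) in Cre-positive uncrushed retinas, and of 2.5 ± 0.16 (n = 3) and 2.03 ± 0.2 (n = 5) after crush. Every Cre-positive uncrushed array (1.77 to 2.17) lay below every Cre-negative one (2.21 to 2.58), while the crushed groups overlapped. The Cre effect of -0.43 did not pass limma's test in uncrushed retinas (adjusted p = 0.88, unadjusted p = 0.00094), nor that of -0.47 in crushed ones (adjusted p = 0.06). Whether this probe lies in the deleted part was not examined.

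A pair of arrays stood apart in markers of other eye tissues. Cre-positive crushed replicate 5 was 1.21 above the mean in lens markers (10 genes, 8 of them measured; the other arrays of its group lay between -0.19 and -0.03) and 0.69 above it in microglia markers, and it was the highest of 17 arrays for 9 of the 31 genes. Cre-positive uncrushed replicate 4 was 1.79 above the mean in cornea and conjunctiva markers (9 genes) and the highest array for 6 genes. The lens genes Lim2 and Mip were well above background on 0 and 1 of 17 arrays. Results that rest on this pair are given with and without it. A further array, Cre-negative uncrushed replicate 2, was the lowest of 17 arrays for 11 of the 31 genes. It stayed in when the pair was left out, and was itself left out only when each array was dropped in turn. Crushed retinas all sat at even and uncrushed ones all at odd positions of the 5 slides, so crush and position parity cannot be told apart.

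**Figure D1:**
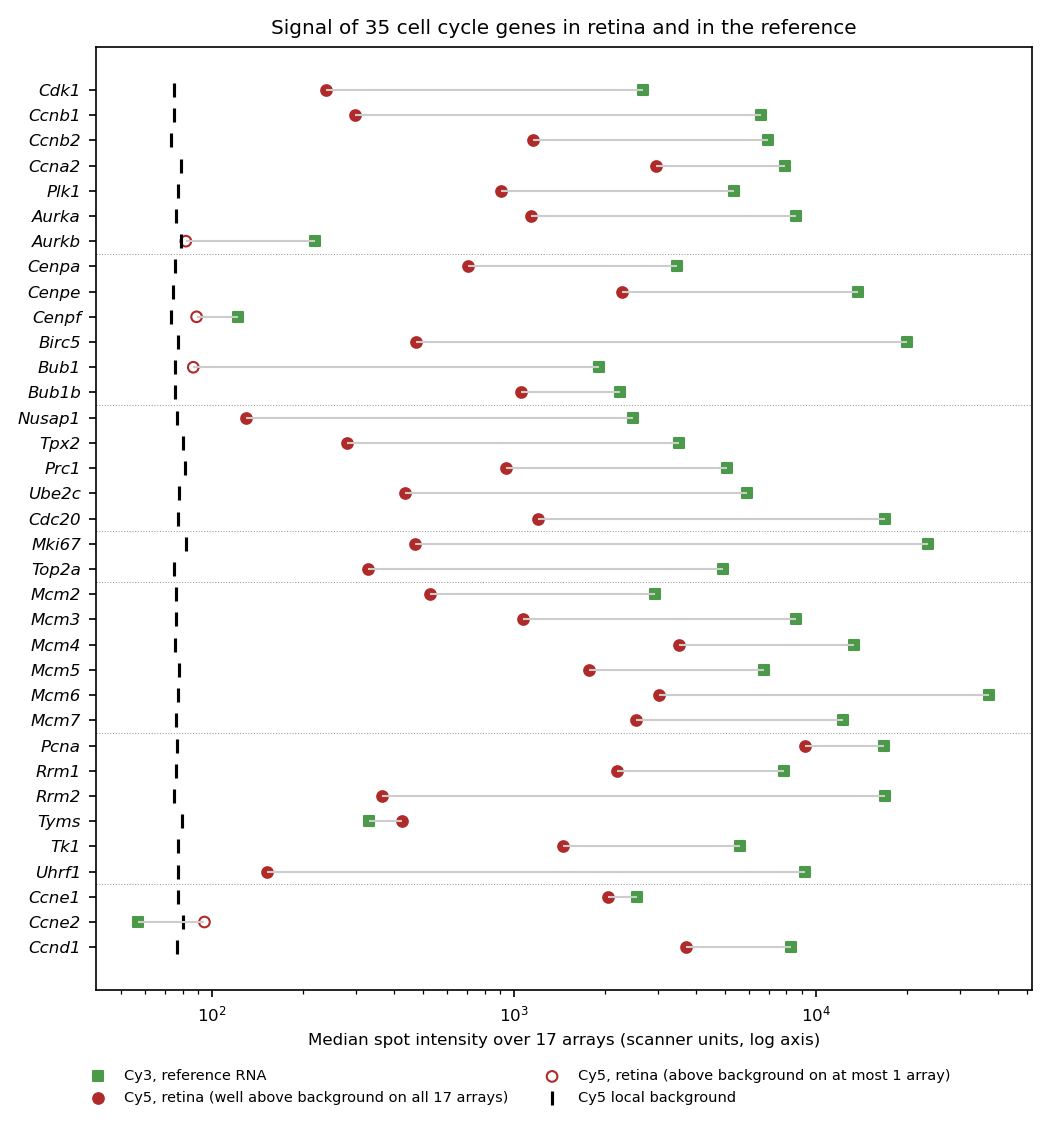
Median spot intensity over 17 arrays (scanner units, log axis) of the 35 genes in retina (Cy5, circles) and in the reference RNA (Cy3, squares), with the local Cy5 background as a tick; open circles mark the 4 genes that were above background on at most 1 array. The retina circle lies left of the reference square except for Tyms and Ccne2.

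The retina signal of these genes was measurable but low against the reference. The 4 genes not measured were Aurkb (well above background on 1 of 17 arrays), Cenpf, Bub1 and Ccne2 (0 of 17). They were tested only where no filter on dim probes was applied. There Aurkb, whose median signal of 82 lay near its background of 79, passed for crush in Cre-negative retinas. All 31 measured genes had a mean log2 ratio below 0, as did 44.6% of all genes tested. Their median was -3.42, against 0.08 over all genes, and they ran from -6.54 for Uhrf1 to -0.5 for Tyms. Since the ratio depends on how much of each RNA the reference holds, it does not rank the genes within retina. Mki67, the gene of the nuclear antigen Ki-67, had a median retina signal of 471 against a local background of 82 and a reference signal of 23500. The retina signals of Nusap1 (130, background 76.5) and Uhrf1 (152, background 77) were dim, so their ratios are the least well measured. Those of Cenpe (2280), Mcm6 (3030), Ccnd1 (3710) and Ccne1 (2050) were far above background. After crush, the 4 genes not measured changed by 0.44 (Aurkb), 0.1 (Cenpf), 0.35 (Bub1) and 0.13 (Ccne2) in Cre-negative retinas. In Cre-positive retinas their changes were 0, -0.1, -0.03 and 0.15 in that order. A rise like that of Nusap1 in Cre-negative retinas (0.43) thus also appeared at probes near background. What such rises stand for was not tested.

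Whether these genes rise after crush was asked in each genotype and as the mean of both genotypes, with limma's test adjusted over all 25356 genes. In Cre-negative retinas 1 of the 31 genes rose (Mcm6) and 1 fell (Ccne1), where 1.34% of all genes rose and 0.808% fell (2.15% in all). In Cre-positive retinas 1 rose (Cenpe) and none fell, where 0.667% of all genes rose and 0.0868% fell (0.753% in all). As the mean of both genotypes 5 rose and 1 fell, where 2.61% of all genes rose and 0.962% fell (3.57% in all). An unadjusted p under 0.05 was reached by 7, 8 and 10 of the 31 genes in these comparisons, and by 13.3%, 9.52% and 14.1% of all genes. The median change over the 31 genes was 0.08, 0.02 and 0.06 in these comparisons, and over all genes it was 0.0015, 3e-04 and 8e-04. The mean is built from the other pair of comparisons and is not separate evidence.

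**Figure D2:**
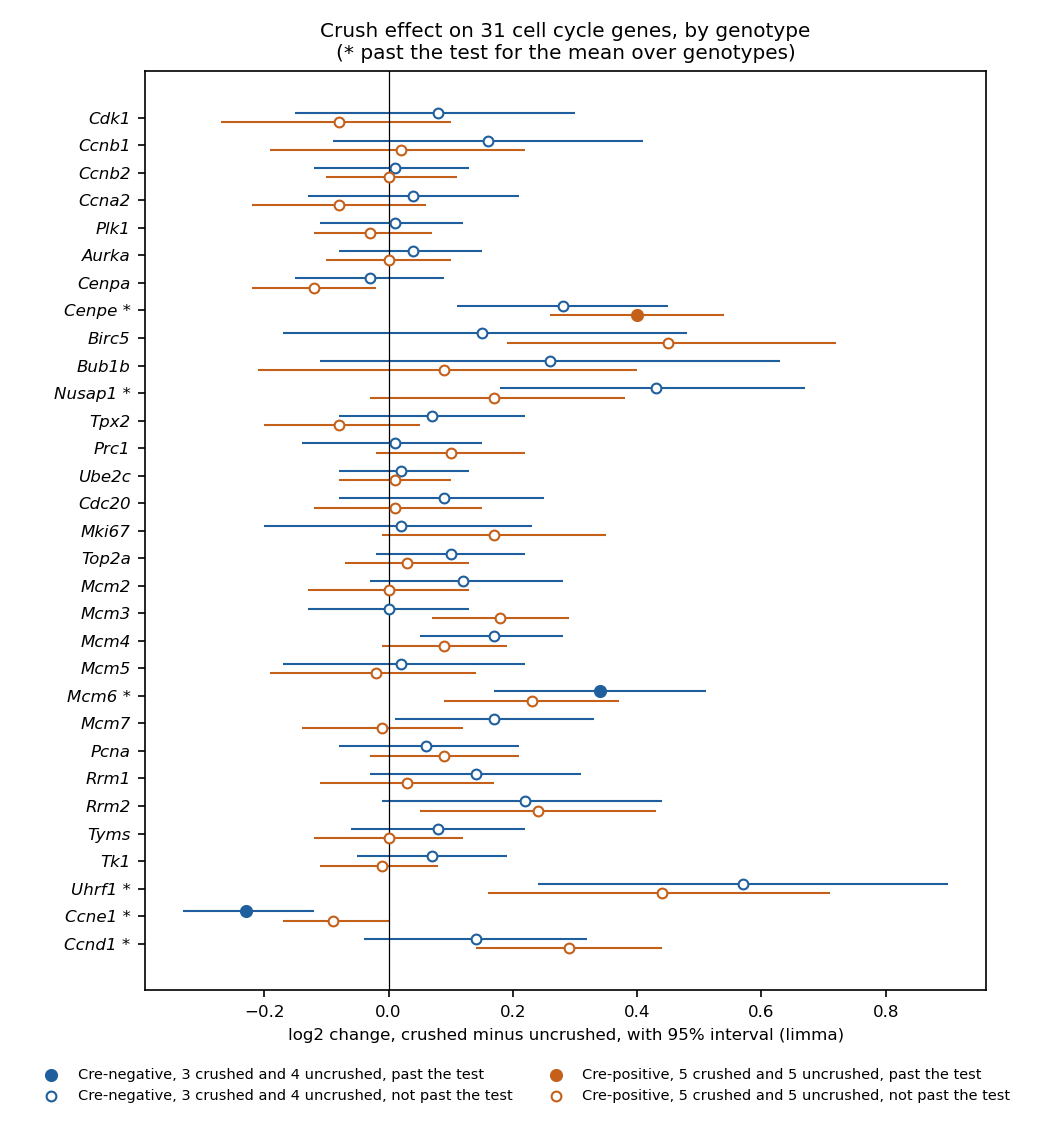
log2 change after crush (crushed minus uncrushed) of the 31 measured genes in Cre-negative (3 crushed and 4 uncrushed) and Cre-positive (5 and 5) retinas, with 95% intervals from limma; filled points passed the test and an asterisk marks the 6 genes past it for the mean over genotypes. Most points lie near 0, and Uhrf1, Cenpe and Mcm6 lie to the right of it in both genotypes.

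Among the 6 measured mitotic kinases and cyclins no gene passed the test for crush in either genotype, and none reached an unadjusted p under 0.05. Their changes ran from 0.01 to 0.16 in Cre-negative and from -0.08 to 0.02 in Cre-positive retinas. Cdk1, the kinase that drives entry into mitosis, had log2 ratios of -4.15, -4.34, -4.39 and -4.28 in Cre-negative uncrushed and -4.36, -4.05 and -4.24 in Cre-negative crushed retinas. In Cre-positive retinas it was -4.18, -4.3, -3.79, -4.16 and -4.36 without crush and -4.32, -4.29, -4.21, -4.23 and -4.15 with it. The groups overlapped in both genotypes, and 1 uncrushed array was the highest of all. The mean change of Cdk1 was 0 (95% interval -0.15 to 0.14, limma adjusted p = 0.99). None of its partners passed: Ccnb1 changed by 0.09 (-0.07 to 0.25), Ccnb2 by 0 (-0.08 to 0.09) and Ccna2, the cyclin of S and G2 phase, by -0.02 (-0.13 to 0.09). The intervals of the kinases Plk1 (-0.08 to 0.06) and Aurka (-0.06 to 0.1), which act at centrosomes and the spindle, were the tightest of the group.

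Of the centromere and checkpoint genes, Cenpe rose. It encodes CENP-E, the kinesin that carries chromosomes to the middle of the spindle. Its log2 ratios were -3.53, -3.37, -3.4 and -3.63 in Cre-negative uncrushed and -3.29, -3.19 and -3.12 in Cre-negative crushed retinas. In Cre-positive retinas they were -3.53, -3.53, -3.52, -3.68 and -3.48 uncrushed and -3.19, -3.13, -3.07, -3.34 and -3.02 crushed. Every crushed array lay above every uncrushed one within each genotype. The change was 0.28 ± 0.08 (SE) in Cre-negative (adjusted p = 0.083) and 0.4 ± 0.07 in Cre-positive retinas (adjusted p = 0.0049), and 0.34 ± 0.05 (1.27-fold) as the mean (adjusted p = 0.00048, limma). The mean was 0.31 (adjusted p = 0.0014) without both arrays that stood apart, and on single slides it was 0.21 to 0.34 in 3 Cre-negative and 0.34 to 0.52 in 4 Cre-positive comparisons. The mean stayed past the test in all 28 alternatives run, while the Cre-positive call was lost with the array of disagreeing labels counted as uncrushed (adjusted p = 0.13).

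The other members of this group did not pass the test. Birc5 (survivin), a subunit of the chromosomal passenger complex, had log2 ratios of -6.39 to -6.27 in Cre-negative uncrushed and -6.27 to -6.09 in Cre-negative crushed retinas. In Cre-positive retinas it ran from -6.44 to -6.16 uncrushed and was -6.07, -5.72, -6.07, -6.21 and -5.26 crushed, so the highest value came from replicate 5, the array high in lens markers. Its mean change was 0.3 (0.09 to 0.52, adjusted p = 0.13) with all arrays, and 0.25 (adjusted p = 0.04) without both arrays that stood apart. Its other probes gave a mean change of 0.18 and 0.04. Cenpa, the histone H3 variant of centromeres, changed by -0.08 (-0.16 to 0), and Bub1b, which encodes the checkpoint kinase BubR1, by 0.18 (-0.06 to 0.42) with wide spread in each group.

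Of the 5 spindle and anaphase genes, Nusap1, whose product binds and stabilises spindle microtubules, rose as the mean of both genotypes. Its log2 ratios were -5.15, -5.21, -5.14 and -5.11 in Cre-negative uncrushed and -4.98, -4.52 and -4.68 in Cre-negative crushed retinas. The Cre-positive values were -4.82, -5.38, -5.26, -5.02 and -5.18 uncrushed and -4.99, -4.96, -4.83, -5.14 and -4.86 crushed. The Cre-negative groups were apart and the Cre-positive groups overlapped. The change was 0.43 ± 0.12 (adjusted p = 0.071) and 0.17 ± 0.1 (adjusted p = 0.6) in that order, and 0.3 ± 0.08 (1.23-fold) as the mean (adjusted p = 0.032). Without both arrays that stood apart the mean was 0.3 and did not pass (adjusted p = 0.059). It was lost in 14 of 28 alternatives. Among them, 11 left out 1 array (Cre-negative uncrushed replicates 1, 2, 3 and 4, Cre-negative crushed 2 and 3, Cre-positive uncrushed 2, 3 and 5, or Cre-positive crushed 3 and 5), and gave changes of 0.25 to 0.31 with adjusted p of 0.051 to 0.11. With Agilent's processed signals the change was 0.45. For Tpx2, Prc1, Ube2c and Cdc20, which act in spindle assembly, cytokinesis and anaphase, the mean changes ran from 0 to 0.06 and none passed.

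Mki67 and Top2a, the genes most often used to mark dividing cells, did not pass the test. Mki67 had log2 ratios of -6.51, -6.66, -6.61 and -6.36 in Cre-negative uncrushed and -6.53, -6.48 and -6.55 in Cre-negative crushed retinas. In Cre-positive retinas it was -6.36, -6.38, -6.61, -6.55 and -6.69 uncrushed and -6.41, -6.26, -6.58, -6.41 and -6.09 crushed. The groups overlapped in both genotypes, and the highest value was again Cre-positive crushed replicate 5. The mean change was 0.09 (-0.05 to 0.23, adjusted p = 0.58), or 0.06 without both arrays that stood apart (adjusted p = 0.81). A second Mki67 probe of similar signal gave a change of 0.33 ± 0.12 without Cre and 0.2 ± 0.1 with Cre, and 0.26 ± 0.08 as the mean (adjusted p = 0.12 over all probes). Top2a, the topoisomerase that untangles chromosomes, ran from -4.68 to -4.66 in Cre-negative uncrushed and from -4.59 to -4.55 in Cre-negative crushed retinas, a change of 0.1 (-0.02 to 0.22, adjusted p = 0.51). In Cre-positive retinas its change was 0.03 (-0.07 to 0.13).

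**Figure D3:**
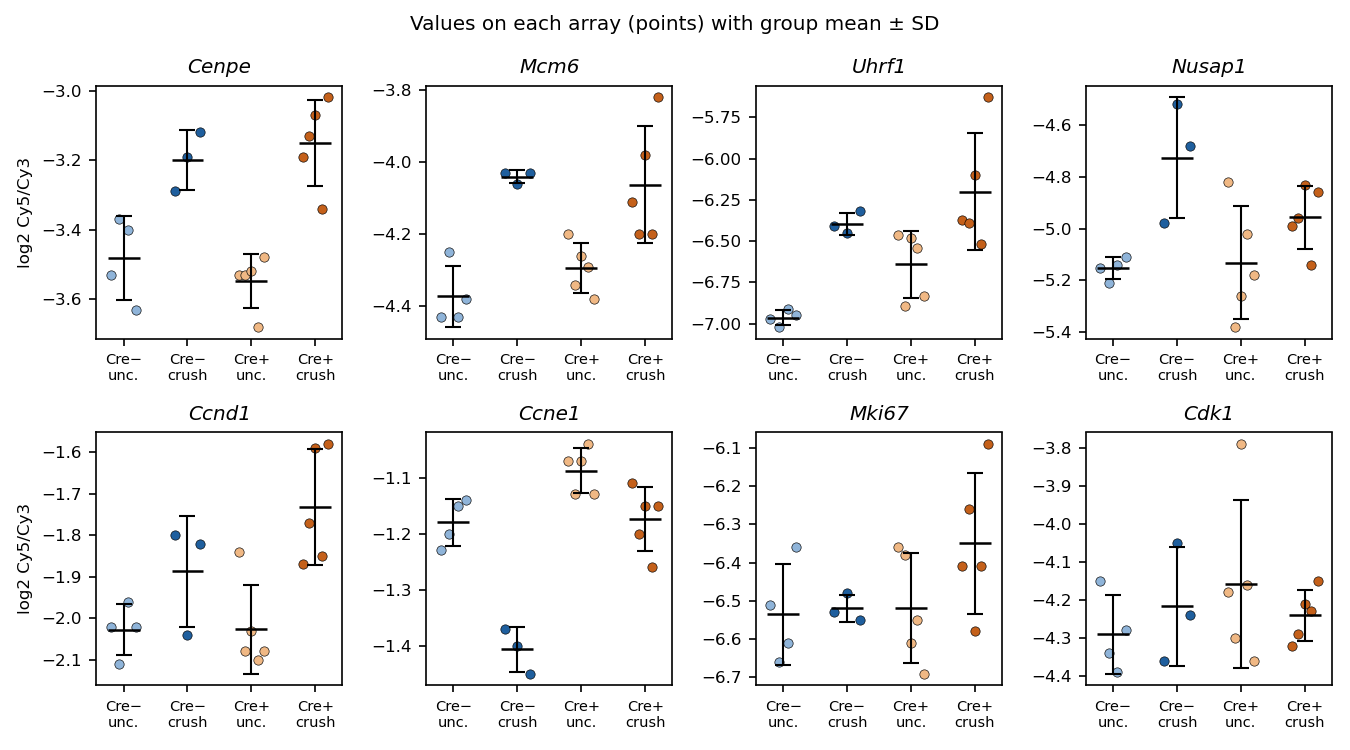
log2 ratio of retina over reference on each array (points) with the group mean ± SD for 8 genes, in the order Cre-negative uncrushed and crushed, then Cre-positive uncrushed and crushed; each panel has its own axis. Cenpe and Mcm6 are higher in every crushed array of both genotypes, Ccne1 is lower in the Cre-negative crushed arrays, and Mki67 and Cdk1 overlap.

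The MCM genes encode the ring of 6 proteins that is loaded at origins and unwinds DNA in S phase. Of the 6, Mcm6 rose. Its log2 ratios were -4.43, -4.25, -4.43 and -4.38 in Cre-negative uncrushed and -4.03, -4.06 and -4.03 in Cre-negative crushed retinas. With Cre they were -4.2, -4.34, -4.26, -4.29 and -4.38 uncrushed and -4.11, -4.2, -3.98, -4.2 and -3.82 crushed. Crushed arrays were above uncrushed ones in each genotype, narrowly so in Cre-positive retinas, where both groups reach -4.2 at this rounding. The change was 0.34 ± 0.08 in Cre-negative (adjusted p = 0.032) and 0.23 ± 0.07 in Cre-positive retinas (adjusted p = 0.15), and 0.28 ± 0.05 (1.22-fold) as the mean (adjusted p = 0.003, limma). The mean kept its call in all 28 alternatives and was 0.26 (adjusted p = 0.0037) without both arrays that stood apart. On single slides the change was 0.22 to 0.37 (3 comparisons) and 0.18 to 0.38 (4 comparisons). The Cre-negative call was lost in 9 of 28 alternatives, 6 of which left out 1 array (Cre-negative uncrushed 1, 3 or 4, or Cre-negative crushed 1, 2 or 3; changes of 0.32 to 0.35, adjusted p of 0.07 to 0.12).

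The other MCM genes moved less. Mcm4 changed by 0.13 (0.05 to 0.2, adjusted p = 0.063) and Mcm3 by 0.09 (0.01 to 0.17, adjusted p = 0.31). Mcm7 changed by 0.08 (-0.02 to 0.18), Mcm2 by 0.06 (-0.04 to 0.16) and Mcm5 by 0 (-0.13 to 0.13). Counted by groups that do not overlap, Mcm4, Mcm6 and Mcm7 were higher in all Cre-negative crushed arrays. Over all 31 genes that count was 9 higher (with Cenpe, Birc5, Nusap1, Top2a, Rrm2 and Uhrf1) and 1 lower (Ccne1) in Cre-negative retinas, where 8.8% of all genes were higher and 6.61% lower. In Cre-positive retinas it was 2 higher (Cenpe and Mcm6) and 0 lower, where the background was 1.52% and 0.564%.

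Among the genes of DNA synthesis, Uhrf1 rose. Its protein brings the maintenance methyltransferase to newly copied DNA. The log2 ratios were -6.97, -7.02, -6.91 and -6.95 in Cre-negative uncrushed and -6.41, -6.45 and -6.32 in Cre-negative crushed retinas. The Cre-positive arrays gave -6.46, -6.89, -6.48, -6.54 and -6.83 uncrushed and -6.37, -6.39, -6.1, -6.52 and -5.63 crushed. The Cre-negative groups were well apart, while the Cre-positive ones overlapped and replicate 5 of the crushed retinas was the highest. The change was 0.57 ± 0.16 (adjusted p = 0.073) and 0.44 ± 0.13 (adjusted p = 0.18), and 0.5 ± 0.1 (1.42-fold) as the mean (adjusted p = 0.0069, limma). Without both arrays that stood apart the mean was 0.44 (adjusted p = 0.0016), and the Cre-negative change of 0.57 passed (adjusted p = 0.0062). The mean kept its call in all 28 alternatives, with changes of 0.43 to 0.89; the highest came from Agilent's processed signals, and the highest adjusted p was 0.0498, with the array of disagreeing labels counted as uncrushed. A second probe, not above background on any array, gave -0.01. On single slides the change was positive in all 7 comparisons, from 0.2 to 0.83.

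The remaining genes of this group did not pass. Rrm2, the regulated subunit of ribonucleotide reductase, ran from -6.61 to -6.54 and from -6.51 to -6.23 in Cre-negative uncrushed and crushed retinas. In Cre-positive retinas it ran from -6.56 to -6.22 and from -6.36 to -5.83. Its mean change was 0.23 (0.08 to 0.38, adjusted p = 0.094) with all arrays, and 0.21 (adjusted p = 0.008) without both arrays that stood apart. Its partner Rrm1 changed by 0.09 (-0.02 to 0.2). Pcna, the sliding clamp of the polymerases, changed by 0.08 (-0.01 to 0.17), while the thymidylate genes Tyms (0.04, -0.05 to 0.13) and Tk1 (0.03, -0.05 to 0.1) had narrow intervals around 0.

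The G1 cyclins moved in opposite directions. Ccne1 encodes cyclin E1, which with CDK2 starts S phase. Its log2 ratios were -1.23, -1.2, -1.15 and -1.14 in Cre-negative uncrushed and -1.37, -1.4 and -1.45 in Cre-negative crushed retinas. In the Cre-positive groups they were -1.07, -1.13, -1.07, -1.04 and -1.13 uncrushed and -1.11, -1.2, -1.15, -1.26 and -1.15 crushed. The Cre-negative crushed arrays were the lowest of the 17, and the Cre-positive groups overlapped. Ccne1 fell by 0.23 on the log2 scale in Cre-negative retinas (SE 0.05, adjusted p = 0.021), and the change in Cre-positive retinas was -0.09 ± 0.04 (adjusted p = 0.54). As the mean of both it fell by 0.16 (0.897-fold, adjusted p = 0.0092), a call that was lost with the array of disagreeing labels as uncrushed (adjusted p = 0.074). The Cre-negative call was lost in 7 of 28 alternatives, 5 of which left out 1 array (Cre-negative crushed 1, 2 or 3, or Cre-negative uncrushed 3 or 4; adjusted p of 0.052 to 0.12). A dim second probe gave 0.06 and -0.04 in the 2 genotypes.

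Ccnd1 encodes cyclin D1, which links growth signals to the RB protein and is also made in Müller glia. Its log2 ratios were -2.02, -2.11, -1.96 and -2.02 in Cre-negative uncrushed and -1.8, -2.04 and -1.82 in Cre-negative crushed retinas. Cre-positive retinas had -1.84, -2.08, -2.03, -2.1 and -2.08 uncrushed and -1.87, -1.77, -1.59, -1.85 and -1.58 crushed. Both pairs of groups overlapped, the second through a single uncrushed array. The change was 0.14 ± 0.09 (adjusted p = 0.52) and 0.29 ± 0.07 (adjusted p = 0.07), and 0.22 ± 0.06 (1.16-fold) as the mean (adjusted p = 0.036). Without Cre-positive uncrushed replicate 1 the Cre-positive change was 0.34 and passed (adjusted p = 0.034). Without both arrays that stood apart the mean was 0.19 (adjusted p = 0.11). It was lost in 16 of 28 alternatives, among them 11 that left out 1 array (Cre-negative uncrushed 1, 2 and 4, Cre-negative crushed 1 and 3, Cre-positive uncrushed 2, 3, 4 and 5, or Cre-positive crushed 3 and 5; changes of 0.2 to 0.22, adjusted p of 0.055 to 0.13).

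The genes were then compared between Cre-positive and Cre-negative retinas. Since all mice carried the loxP sites, loss of DLK and other effects of the Cre transgene cannot be told apart. In uncrushed retinas 0 of 31 passed limma's test for the Cre effect (0.0118% of all genes did), and 1 had an unadjusted p under 0.05. That was Uhrf1, at 0.32 (0.03 to 0.61, adjusted p = 0.88), whose 5 Cre-positive values all lay above the 4 Cre-negative ones. Ccne1 was likewise higher in every Cre-positive uncrushed array (0.09, 0 to 0.18), where 1.29% of all genes were. In crushed retinas 1 of 31 passed (1.18% of all genes did, 0.623% higher and 0.556% lower). Ccne1 was higher in Cre-positive crushed retinas by 0.23 ± 0.05 (1.18-fold, adjusted p = 0.02), which uses the same Cre-negative crushed arrays as its fall. That call was lost in 7 of 28 alternatives, 4 of which left out 1 array (Cre-positive crushed 1 or Cre-negative crushed 1, 2 or 3; adjusted p of 0.052 to 0.11). Prc1 (0.16) and Mcm3 (0.17) were also higher and Mcm7 (-0.17) lower in all Cre-positive than in all Cre-negative crushed arrays, against 5.86% and 4.39% of all genes, without passing.

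The test of the difference itself, crush effect in Cre-positive minus Cre-negative retinas, was passed by 0 of 31 genes (0.418% of all genes passed), with 2 at an unadjusted p under 0.05. These were Mcm3 (0.18, 0.01 to 0.35, adjusted p = 0.57) and Ccne1 (0.14, 0 to 0.28, adjusted p = 0.58). The differences over the 31 genes ran from -0.25 to 0.3 with a median of -0.07. For Uhrf1 it was -0.13 (-0.56 to 0.29), so a sizeable difference in either direction is within its interval.

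**Figure D4:**
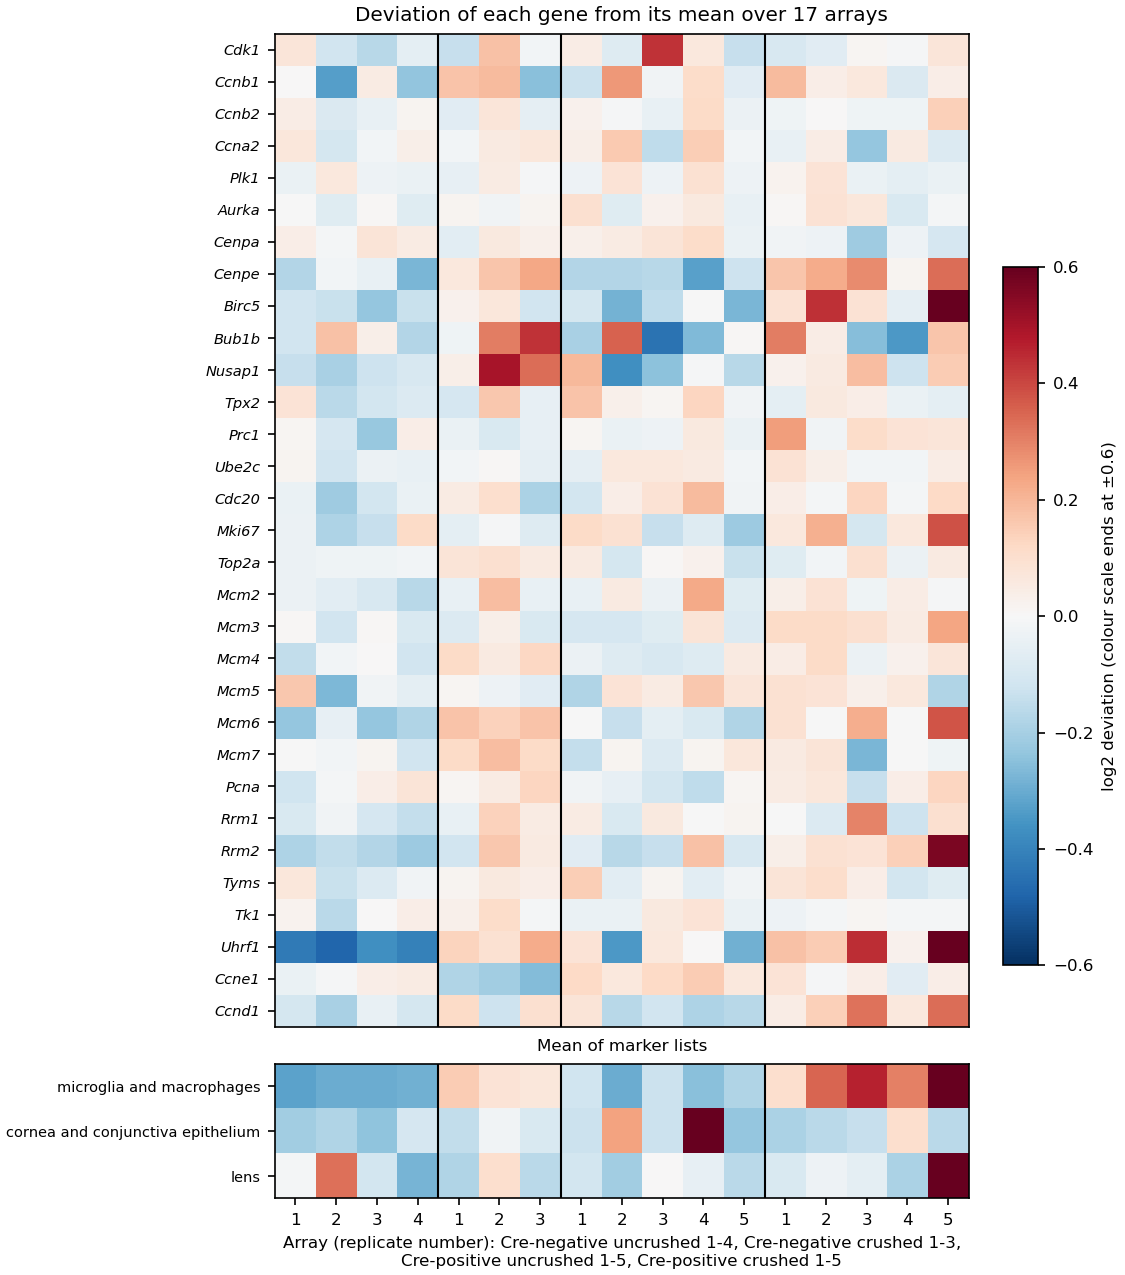
Upper panel: deviation of each of the 31 genes from its own mean over the 17 labelled arrays (log2, colour scale ending at ±0.6), arrays in columns by group and genes in rows by role. Lower panel: the same for the mean of 3 marker lists. The uncrushed Cre-negative columns are blue for Uhrf1, and the last column, Cre-positive crushed replicate 5, is dark red for Birc5, Rrm2, Uhrf1 and for microglia and lens markers.

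Microglia markers moved with crush. Of 12 markers of microglia and macrophages 11 were measured, with 4 rising in Cre-negative retinas, 9 in Cre-positive ones and 9 as the mean. Aif1, which encodes the microglial protein IBA1, rose by 0.84 ± 0.13 and 0.89 ± 0.11, and C1qc, a subunit of complement C1q, by 0.64 ± 0.11 and 0.87 ± 0.09. P2ry12 (mean 0.04) and Itgam (mean -0.05) did not pass. By array, the mean deviation of the list was -0.32 to -0.29 and 0.07 to 0.15 in Cre-negative, and -0.3 to -0.12 and 0.1 to 0.69 in Cre-positive uncrushed and crushed retinas. The 7 measured leukocyte markers had a mean change of -0.11 to 0.17 and none passed, with 0 at an unadjusted p under 0.05. Markers of other cells moved too. Of 9 measured ganglion cell markers 8 fell in Cre-negative retinas (median change -0.76), 2 in Cre-positive ones (median -0.27) and 9 as the mean, and 4 passed the test of the difference between genotypes. By array the mean deviation of that list was 0.1 to 0.25 and -0.84 to -0.77 in Cre-negative, and 0.23 to 0.34 and -0.01 to 0.17 in Cre-positive uncrushed and crushed retinas. As the mean, 2 of 5 astrocyte markers rose (Gfap and Aldh1l1), and 3 of 10 Müller glia markers passed (Sox9, Glul and Clu, with 2 higher and 1 lower). None of 7 retinal progenitor markers passed for crush. An unadjusted p under 0.05 in limma was reached by 1 of them in each genotype and by 0 as the mean. In whole retina more cells of a type and more RNA per cell cannot be told apart, and the part of these cells in the changes of the cell cycle genes was not tested.

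Other genes of the cycle were read from 4 lists of 125 genes, 121 of them measured. As the mean of both genotypes 4 rose and 1 fell. In Cre-negative retinas 3 rose and 0 fell, and in Cre-positive retinas 0 rose and 1 fell. These are 4.13%, 2.48% and 0.826% of the 121, near the 3.57%, 2.15% and 0.753% of all genes that passed, so the counts do not set the lists apart. Of the 20 genes of E2F, RB and DREAM control 1 passed: E2f6, a repressor of the E2F family, rose by 0.28 ± 0.07 (adjusted p = 0.028; lost without Cre-negative uncrushed 1 or 4 or Cre-negative crushed 1 or 3, at 0.25 to 0.27 and adjusted p of 0.056 to 0.1). Of the 44 genes of origin licensing and the replication fork 2 rose as the mean. They were Gins1, a partner of MCM in the active helicase (0.22 ± 0.06, adjusted p = 0.034), and Cdt1, which loads MCM at origins (0.23 ± 0.06, adjusted p = 0.043). Leaving out 1 array ended these calls in 12 cases (all but Cre-positive uncrushed 1 and Cre-positive crushed 1, 2, 4 and 5) and in 13 (all but Cre-negative uncrushed 4, Cre-positive uncrushed 5 and Cre-positive crushed 3 and 4), with adjusted p of 0.051 to 0.092 and 0.052 to 0.15. Chaf1b, a subunit of the chromatin assembly factor, rose in Cre-negative retinas (0.26 ± 0.06, adjusted p = 0.027) and a second probe gave 0.72; the call was lost without Cre-negative uncrushed 1, 2 or 4 or Cre-negative crushed 1 or 2 (adjusted p of 0.068 to 0.16).

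The largest change among these genes was in an inhibitor of the cycle. Cdkn1a encodes p21, which blocks CDK2 and is a target of p53. Its log2 ratios ran from -3.93 to -3.41 in Cre-negative uncrushed and from -2.81 to -2.45 in Cre-negative crushed retinas. In Cre-positive retinas they ran from -3.79 to -3.51 and from -3.68 to -3.39. Only the Cre-negative crushed arrays stood above the rest. Cdkn1a rose by 0.99 ± 0.11 (1.98-fold, adjusted p = 3.5e-05) in Cre-negative retinas and its change was 0.1 ± 0.1 in Cre-positive ones, where it did not pass (adjusted p = 0.77). The first call was lost (adjusted p = 0.17, limma) with the array of disagreeing labels as uncrushed, though its ganglion cell markers lay near the Cre-negative crushed arrays. The difference between genotypes was -0.88 ± 0.15 (adjusted p = 0.0058, limma), and it was lost with processed signals, with the processed Cy5 signal alone and with the array of disagreeing labels as uncrushed (adjusted p of up to 0.62). A dim second probe, above background on 7 of 17 arrays, gave 0.15 and 0.01. Cdkn2b (p15), another inhibitor of G1 kinases, rose by 0.46 ± 0.12 in Cre-negative retinas (adjusted p = 0.047), and leaving out 1 array ended that call in 13 cases (all but Cre-positive uncrushed 2, 4 and 5 and Cre-positive crushed 5; adjusted p of 0.0503 to 0.22).

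Of the 40 other mitosis genes 37 were measured, and 1 fell after crush. Spc25, a subunit of the NDC80 complex of kinetochores, had log2 ratios of 2.97 to 3.31 and 2.67 to 2.87 in Cre-negative uncrushed and crushed retinas. In Cre-positive retinas it had 2.99 to 3.37 and 2.46 to 2.91. Unlike all 31 genes described above, it lay far above the reference. Spc25 fell by 0.36 on the log2 scale as the mean (0.779-fold, adjusted p = 0.0045), a call kept in all 28 alternatives. In Cre-positive retinas alone it fell by 0.39 (adjusted p = 0.046), and leaving out 1 array ended that call in 14 cases (all but Cre-negative uncrushed 2, Cre-positive uncrushed 4 and Cre-positive crushed 1; adjusted p of 0.051 to 0.11).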

How the data were processed

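Whole retina RNA (Cy5) and universal mouse reference RNA (Cy3) were hybridised to 2-colour Agilent arrays, per the labels. The deposited scanner files, written by Feature Extraction 10.7.3.1 per the file headers, give for both dyes a median spot intensity, a median local background and a processed signal. A table deposited by the authors holds log2 ratios of Cy5 over Cy3, a single value for each probe and array; limma is named in the submitters' processing notes, with version and settings not given in the sources used here. That scale is not stated and was inferred, since the values correlated at r of 0.999 to 1 with the ratios computed here (slopes 1 to 1.02, column medians 0.015 to 0.0237).

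Intensities were corrected with limma 3.58.1 (R 4.3.3; files read with data.table, version 1.17.8) by normexp with an offset of 50, which pulls ratios of dim spots toward 0, and normalised by loess within each array. Probes were named through RefSeq accessions; of 39429 probes 26581 carried a symbol (20144 symbols in all). A gene was its probe with the highest mean intensity of both dyes, kept if its Cy5 spot passed Agilent's test of being well above background on 3 or more of 17 arrays, which left 25356 genes (16775 named). Limma fitted 4 group means (13 residual and 4.49 prior degrees of freedom), with 6 contrasts, two-sided tests and Benjamini-Hochberg adjustment over all genes at 0.05; intervals are 95%. The code was tested on simulated data. The number of arrays limits the precision. Within groups, arrays correlated at 0.982 to 0.996.

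The members and gene lists were chosen with earlier results of these data known. All 35 members are accounted for; pathway genes are named where they passed the test, up to 5 per list and contrast. Of 264 list entries 260 were on the array. Alternatives were other signals, no background subtraction, Aquantile scaling, Cy5 alone, the authors' table, no filter, another probe rule, slide as a block, the array with disagreeing labels in either group, each array left out, and, chosen after seeing the data, leaving out both arrays high in cornea or lens markers. Promoter windows are from RefSeq (GRCm38.p6).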

Additional observations from a re-analysis of the deposited data

Results flagged for a closer look

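In 8 of the 93 sets of 4 or 5 arrays of a group, 1 array lay far from the others by Dixon's test, which chance gives in about 1 set in 20. On Cre-positive crushed replicate 5, the array high in lens markers, Rrm2 was at -5.83 (others -6.36 to -6.25), Ccnb2 at -3.29 (others -3.46 to -3.43) and Mcm5 at -2.93 (others -2.72 to -2.66). On Cre-positive uncrushed replicate 4, the array high in cornea markers, Rrm2 was at -6.22 (others -6.56 to -6.46), Mcm3 at -3.78 (others -3.96 to -3.93) and Cenpe at -3.68 (others -3.53 to -3.48). Mcm7 was at -3.4 on Cre-positive crushed replicate 3 (others -3.15 to -3.05), and Ccnd1 at -1.84 on Cre-positive uncrushed replicate 1 (others -2.1 to -2.03). So 6 of the 8 came from the 2 arrays that stood apart in markers of other eye tissues.

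The crush effect on Cdkn1a differed between genotypes by -0.88 (limma interaction, adjusted p = 0.0058).

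The array whose labels disagree on crush entered no comparison, and 4 of the 5 genes that rose after crush lay on it above the range of the Cre-negative uncrushed arrays. Mcm6 was at -4.06 (range -4.43 to -4.25), Cenpe at -3.08 (-3.63 to -3.37), Nusap1 at -4.87 (-5.21 to -5.11) and Uhrf1 at -6.47 (-7.02 to -6.91). Its lens markers were 0.9 and its microglia markers 0.37 above the mean of the labelled arrays, and its ganglion cell markers had a mean deviation of -0.9.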

How the results depend on the processing

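Of 5208 changes of single members under 28 alternatives, 55 lost and 17 gained a call, and no called change reversed. With the array of disagreeing labels as uncrushed, called genes were 73 (Cre-negative crush), 10 (Cre-positive crush), 276 (mean), 115 (Cre, crushed retinas) and 0 (difference between genotypes; 1979 at an unadjusted p under 0.05 in limma), against 545, 191, 905, 299 and 106. Called members were then 0, 0, 3 and 0 for the first 4 (5, 8 and 3 at an unadjusted p under 0.05 in limma for those at 0). As crushed, the Cre-negative crush called 4 members. Slide as a block gave 145 genes and 0 members for Cre in crushed retinas (3 at an unadjusted p under 0.05), and 1 gene against 3 in uncrushed ones. Processed signals gave 69 genes for the difference between genotypes and 1 member for the Cre-negative crush; Cy5 alone gave 0 members there (5 at an unadjusted p under 0.05). Without both arrays high in cornea or lens markers, 120 genes were called for the Cre-positive crush, 1 for Cre in uncrushed and 0 members for Cre in crushed retinas (5 at an unadjusted p under 0.05). Leaving out 1 array gave 330 to 679, 110 to 230, 167 to 325 and 1 to 3 genes for the Cre-negative crush, Cre-positive crush, Cre in crushed and Cre in uncrushed retinas. It gave 0 to 3, 1 to 2 and 0 to 1 members for the first 3. The split of higher against lower calls moved: Cy5 alone gave 276 higher of 551 (Cre-negative crush, main 340 of 545), 151 of 192 (Cre-positive crush, main 169 of 191), 568 of 939 (mean, main 661 of 905) and 54 of 116 (difference, main 34 of 106), and processed signals 70 of 215 (Cre, crushed retinas, main 158 of 299) and 14 of 69 (difference); slide as a block gave 54 of 145 (Cre, crushed retinas). The causes were not tested. No paired analysis was possible because the labels give no replicate numbers and tie no retinas to an animal; slide as a block and differences within slides were the only groupings of crushed with uncrushed arrays. Dim probes (Nusap1, Uhrf1 and the 4 genes not measured) limit what can be said of those genes.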
